A study of Mus musculus with 12 samples.

Results

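The 10 genes described here are widely used markers of astrocytes, the star-shaped glial cells that take up transmitter, buffer potassium and water and supply neurons with metabolites. They are Gfap, Aqp4, Slc1a3, Slc1a2, Aldh1l1, Aldoc, Gja1, S100b, Glul and Apoe. They were chosen by name as rows of the deposited count table, and all 10 were found among its 43280 gene rows. All 10 also passed the count filter, which left 13104 genes for testing. The libraries came from dissected hypothalamus of male C57/Bl6 pups at postnatal day 6, 6 controls and 6 pups exposed to modified maternal separation (MMS). MMS pups spent a period of each of several days apart from the dam, on a heating pad, and were turned onto their backs when they righted themselves, and tissue was taken directly after the last session. Litters were divided between the groups, so controls and MMS pups can be littermates. The labels do not give the litter of a library, and the p-values treat libraries as independent.

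Astrocytes in the hypothalamus line the vessels and wrap synapses around neurosecretory neurons. In the mouse they are still being generated and maturing in the first postnatal week, when Slc1a3 is already abundant and Slc1a2 and Aqp4 are rising. None of these genes is confined to astrocytes. Gfap, S100b and Gja1 are also active in ependymal cells and tanycytes, Glul and S100b in the oligodendrocyte lineage, and Apoe in microglia. In bulk tissue, fewer cells of a type and less RNA per cell cannot be told apart.

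Library totals ran from 3765759 to 6560620 counts in controls and from 3218777 to 5344080 in MMS pups (exact permutation test of the means, two-sided, p = 0.173). Hypothalamic markers were detected, and 11 of 12, such as Avp, Oxt and Sim1, had counts in every library. The other gene, Agrp, had none in at least 1 library. Detection does not tell whether the dissections were alike. MMS 2 and MMS 4 stood apart from the rest. On the first principal component of all tested genes (30.4% of the variance) they lay at 57.8 and 46.3, and the other 10 libraries lay between -14.4 and -3.04. Values of the 10 genes are therefore given with and without these libraries. For most other genes whose call rests on them, the value or the loss of the call without them is given.

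With all libraries, 0 of the 10 genes differed between MMS and control at an adjusted p of 0.05 in edgeR, as was so for 0 of all 13104 genes (0.0%). DESeq2 placed 0 of the 10 past that limit and 6 of all 23534 genes it tested. With limma-voom 0 of the 10 and 0 of all 13104 genes passed it. At an unadjusted p under 0.05, Aldoc and Glul were higher in MMS, 2 of 10 genes against 4.68% of all genes in that direction, and 0 were lower, against 4.4%. In either direction this was 2 of 10 against 9.08%, and both genes also had an absolute log2 fold change of at least 0.3, against 7.45% of all genes. The same genes, 2 higher and 0 lower, met this limit in DESeq2 and in limma-voom. The shares of all genes at that limit in these fits are not reported here. Of the 10, 5 had positive and 5 negative log2 fold changes. Their median was 0.01, and that of all tested genes was 0.0009. All 10 had counts in every library, from 152 for Aldh1l1 to 21502 for Apoe. Values below are CPM, counts scaled to library size with TMM factors. Reads come from transcript ends, so a CPM value is compared between libraries here and not between genes.

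**Figure D1:**
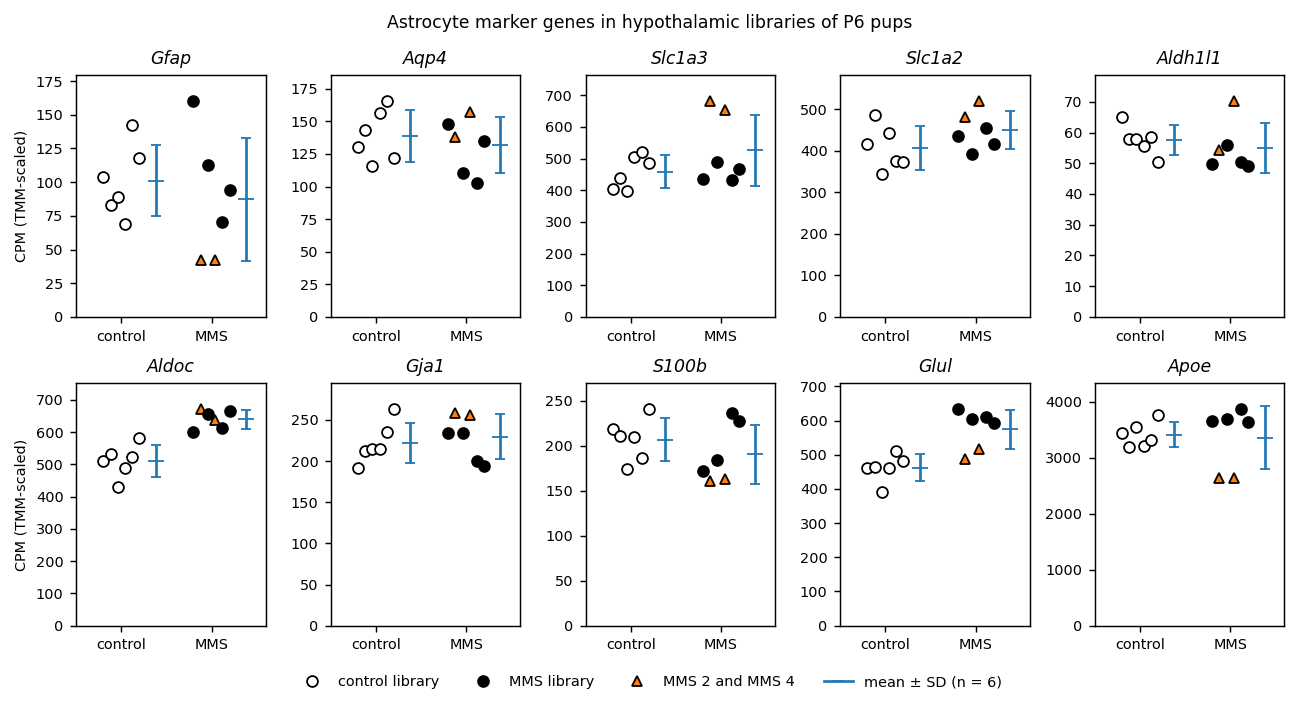
Each panel shows 1 gene, with CPM from 0 on the vertical axis, controls as open circles, MMS libraries as filled circles, MMS 2 and MMS 4 as triangles, and the mean ± SD of 6 libraries per group beside them. Aldoc is the gene whose groups do not overlap, and Gfap, S100b and Apoe are lowest and Slc1a3 highest in MMS 2 and MMS 4.

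The sequences below are promoters of the 4 genes on which the results turn. Aldoc and Glul are shown because both were higher in MMS at the unadjusted limit, and Gfap and Slc1a3 because MMS 2 and MMS 4 were the lowest libraries for the former and the highest for the latter. Each runs 5′ to 3′ on the strand of the gene, from 250 bases before the start to 50 bases after it, as RefSeq gives it on build GRCm38.p6. The Gfap start so given lies inside its GENCODE M21 gene model, whose 5′ end on the minus strand is at 102900912. Capitals mark TTCNNNGAA, the palindrome that STAT transcription factors are known to bind, or TATAAA, the letters of a TATA box, read on either strand. In Slc1a3 the latter begins at -161 and is on the opposite strand, as TTTATA. Whether any marked stretch is used was not tested.
Aldoc, inner start, chr11:78323948-78324247, plus strand: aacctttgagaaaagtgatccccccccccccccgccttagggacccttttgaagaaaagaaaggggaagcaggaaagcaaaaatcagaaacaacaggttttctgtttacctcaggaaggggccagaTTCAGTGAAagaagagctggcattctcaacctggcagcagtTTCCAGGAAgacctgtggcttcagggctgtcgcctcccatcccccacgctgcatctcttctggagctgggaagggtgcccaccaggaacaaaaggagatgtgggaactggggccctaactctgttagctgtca
Glul, chr1:153899679-153899978, plus strand: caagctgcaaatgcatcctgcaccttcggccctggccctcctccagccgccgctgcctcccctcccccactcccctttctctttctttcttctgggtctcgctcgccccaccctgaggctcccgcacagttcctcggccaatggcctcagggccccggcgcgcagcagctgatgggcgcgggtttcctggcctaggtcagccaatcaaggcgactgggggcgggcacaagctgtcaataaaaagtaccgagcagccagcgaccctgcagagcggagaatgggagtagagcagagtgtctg
Gfap, chr11:102897151-102897450, minus strand: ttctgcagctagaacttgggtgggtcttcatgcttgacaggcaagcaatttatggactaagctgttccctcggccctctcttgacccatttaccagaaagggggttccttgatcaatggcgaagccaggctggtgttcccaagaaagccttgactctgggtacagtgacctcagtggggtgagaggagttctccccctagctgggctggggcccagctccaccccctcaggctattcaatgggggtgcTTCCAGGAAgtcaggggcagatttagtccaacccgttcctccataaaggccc
Slc1a3, chr15:8710758-8711057, minus strand: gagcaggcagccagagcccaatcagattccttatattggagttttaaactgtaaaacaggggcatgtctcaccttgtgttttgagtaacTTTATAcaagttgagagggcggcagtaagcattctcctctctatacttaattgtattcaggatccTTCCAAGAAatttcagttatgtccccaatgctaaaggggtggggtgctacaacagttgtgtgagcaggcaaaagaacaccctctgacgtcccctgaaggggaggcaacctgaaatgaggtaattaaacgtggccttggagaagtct

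RefSeq promoters were found for 9 of the 10 genes, and as some genes have several starts there were 12 of them. TTCNNNGAA occurred in 3 of the 12, those of Aldoc, Gfap and Slc1a3, and in 8.3% of all 32851 promoters. In Aldoc it began at -124 and -83 from the inner start and was not found at the outer start (chr11:78322823-78323122). Reads from the transcript end do not tell which start was used. TATAAA occurred in 2 of the 12, at 1 start of Apoe and in Slc1a3, and in 13.6% of all promoters. The palindromic glucocorticoid response element was in 0 of the 12 and in 0.00913% of all promoters, and the palindromic nuclear factor I site was in 0 of the 12 and in 0.0365%. The Glul promoter held none of the 4 motifs on either strand. Its GC content of 64.3% was above the median of all promoters, 52.7%, and the content at the inner Aldoc start was 53.3%.

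Aldoc encodes aldolase C, the glycolytic aldolase of brain, which in glia is an astrocyte enzyme (11:78322968-78327781, plus strand, no overlapping gene in GENCODE M21). Its lowest, median and highest values were 430, 517 and 582 CPM in the control group and 600, 646 and 671 CPM in the MMS group. All 6 MMS libraries lay above all 6 controls. Among the tested genes 17 had every MMS library above every control (0.13%), and Aldoc was the only 1 of the 10 genes here. None of the 10 had every MMS library below every control, against 0.259% of all. The means were 511 ± 50.2 and 640 ± 28.7 CPM (SD over 6 libraries each), a 1.25-fold difference. The log2 fold change was 0.33 (SE 0.09, 95% confidence interval 0.14 to 0.51), with an adjusted p of 0.471 in edgeR. By p Aldoc ranked at 43 of the 13104 genes. Spread within the MMS group was small for Aldoc, with a coefficient of variation of 4.49% against 9.82% in controls. Leaving out MMS 2 and MMS 4 gave 0.31 (SE 0.09, adjusted p = 0.572 in edgeR). DESeq2 gave an adjusted p of 0.119, the lowest of any setting. Aldoa, the paralog expressed in most cells and looked at only after the Aldoc values were seen, came to 0.28 on the log2 scale (SE 0.11, edgeR adjusted p = 0.543), with 4 of 6 MMS libraries above the control range. How reads matching both genes were counted is not given in the sources used here.

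Glul encodes glutamine synthetase, which turns glutamate taken up by astrocytes into glutamine (1:153899944-153909723, plus strand; Teddm2, on the opposite strand, and Mir8114 overlap it). Its lowest, median and highest values were 392, 463 and 510 CPM in the control group and 488, 599 and 633 CPM in the MMS group. Of the MMS libraries 5 lay above all controls, and MMS 2, at 488 CPM, lay inside the control range. MMS 4 was the next lowest, at 517 CPM. The means were 462 ± 39.2 and 574 ± 57.8 CPM (SD over 6 libraries each), a 1.24-fold difference. The log2 fold change was 0.31 (SE 0.10, 95% confidence interval 0.11 to 0.51), with an adjusted p of 0.518 in edgeR. Without MMS 2 and MMS 4 the other 4 MMS libraries lay between 593 and 633 CPM, above every control. The log2 fold change was then 0.41 (SE 0.09), and the adjusted p was 0.129 in edgeR. In that fit 66 of 13407 genes (0.492%) had every MMS library above every control, and Aldoc and Glul were the members among them. At an unadjusted p under 0.05 the fit again had 2 of the 10 genes higher, the same ones, against 2.41% of all genes, and 0 lower, against 2.62% (5.03% in either direction). None of the 10 passed an adjusted p of 0.05 there, against 0.0373% of all genes, and none had every MMS library below every control, against 0.574%.

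Slc1a3 and Slc1a2 encode the glutamate transporters GLAST and GLT-1, which clear glutamate from the synapse and so provide the substrate of glutamine synthetase. Slc1a3 (15:8634124-8710764, minus strand) had its lowest, median and highest values at 399, 461 and 522 CPM in the control group and at 432, 478 and 683 CPM in the MMS group. MMS 2 (683 CPM) and MMS 4 (652 CPM) were the highest of the 12 libraries, and the other 4 MMS libraries, at 432 to 490 CPM, lay within the controls. The log2 fold change was 0.20 (SE 0.12, 95% confidence interval -0.06 to 0.46, edgeR adjusted p = 0.610) and was -0.0047 (interval -0.20 to 0.19) without these libraries. The sign of Slc1a3 thus rested on MMS 2 and MMS 4.

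Slc1a2 (2:102658659-102790784, plus strand) measured 343, 397 and 487 CPM in the control group and 393, 445 and 521 CPM in the MMS group, again as lowest, median and highest. Only MMS 4 lay above all controls, and the other 5 MMS libraries lay within the control range. Its log2 fold change was 0.15 (SE 0.10, 95% confidence interval -0.07 to 0.36, edgeR adjusted p = 0.642), and it was 0.07 without MMS 2 and MMS 4. The ratio of Slc1a3 to Slc1a2 within a library was 0.901 to 1.38 in controls, 1.42 in MMS 2 and 1.25 in MMS 4.

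Gfap encodes glial fibrillary acidic protein, the intermediate filament that rises in reactive astrocytes (11:102887336-102900912, minus strand, with the noncoding gene Gm26668 on the opposite strand). Its lowest, median and highest values were 69.2, 96.6 and 143 CPM in the control group and 42.4, 82.2 and 161 CPM in the MMS group. MMS 2 (42.4 CPM) and MMS 4 (42.6 CPM) lay below every other library, whereas MMS 1, at 161 CPM, lay above every other. The coefficient of variation was 52.3% in the MMS group and 26.2% in controls, the largest of the 10 genes in both. The log2 fold change was -0.22 (SE 0.33, 95% confidence interval -0.93 to 0.49, edgeR adjusted p = 0.839). It was 0.11 (interval -0.48 to 0.71) without MMS 2 and MMS 4, and -0.48 without MMS 1.

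**Figure D2:**
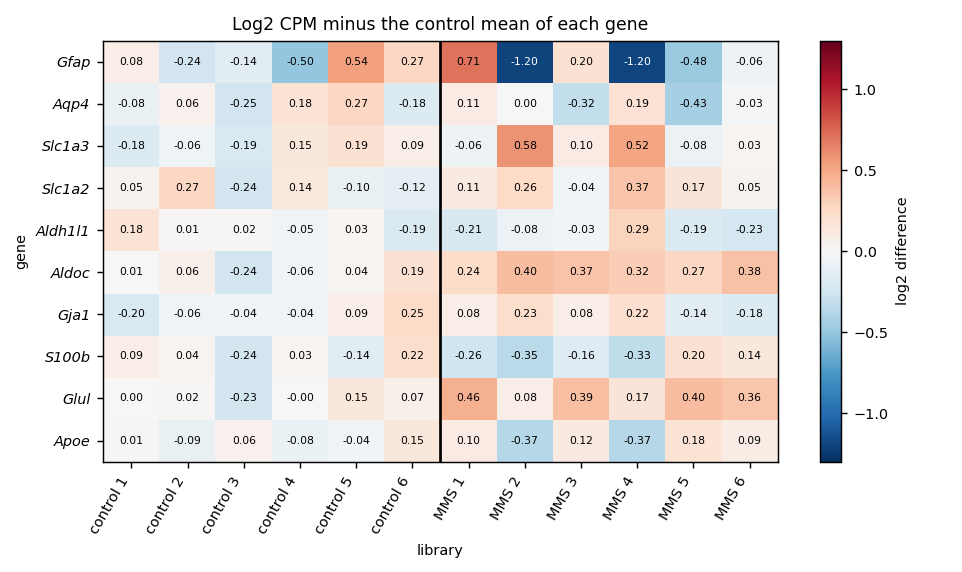
Rows are the 10 genes and columns the 12 libraries, and each cell gives log2 CPM (prior count 2) minus the mean of the 6 controls for that gene, coloured from blue (lower) to red (higher). The MMS 2 and MMS 4 columns are alike, with Gfap at -1.20 in both, Slc1a3 at 0.58 and 0.52, and Apoe at -0.37 in both, while Aldoc is positive in every MMS column.

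S100b, a calcium-binding protein of astrocytes and ependyma, and Apoe, the apolipoprotein that astrocytes secrete to carry cholesterol, shared the low values of Gfap in MMS 2 and MMS 4. S100b (10:76253853-76261159, plus strand) measured 174, 210 and 240 CPM in the control group and 161, 178 and 236 CPM in the MMS group as lowest, median and highest, and MMS 2 (161 CPM) and MMS 4 (163 CPM) were the lowest of all libraries. MMS 1, at 172 CPM, also lay below every control. Its log2 fold change was -0.12 (SE 0.12, 95% confidence interval -0.36 to 0.12, edgeR adjusted p = 0.745) with all libraries and -0.0095 without these. The 3′ end of S100b overlaps Dip2a on the opposite strand, and whether the counting used strand is not given in the sources used here, so reads of these genes may be mixed.

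Apoe (7:19696109-19699188, minus strand, no overlapping gene) measured 3194, 3376 and 3769 CPM in the control group and 2636, 3648 and 3867 CPM in the MMS group. MMS 2 and MMS 4, both at 2636 CPM, lay well below all controls, and the other 4 MMS libraries, at 3636 to 3867 CPM, lay at the top of the control range, with 1 above it. Its log2 fold change was -0.02 (SE 0.11, 95% confidence interval -0.25 to 0.20, edgeR adjusted p = 0.947) and turned to 0.13 (interval -0.04 to 0.29) without MMS 2 and MMS 4. The near-zero difference over all 12 libraries therefore joined MMS libraries on either side of the control mean.

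MMS 2 and MMS 4 formed the lowest pair of the 12 libraries for 3 of the 10 genes (Gfap, S100b and Apoe) and the highest pair for 1 (Slc1a3). Over all tested genes these shares were 15.1% and 14.6%. These libraries also differed in markers of other cells. The ependymal cilia list, of which 16 of 17 genes were in the table and 10 had counts in every library, summed to 40.0 CPM in MMS 2 and 76.4 CPM in MMS 4, against 153 to 276 CPM in the control group and 137 to 269 CPM in the other 4 MMS libraries. The neuron list (12 of 12 genes, all with counts in every library) summed to 11499 and 11365 CPM, against 13679 to 15193 CPM in the control group and 13489 to 15320 CPM in the other 4. Such sums weigh the most abundant genes most, and the neuron genes were split. MMS 2 and MMS 4 were the lowest pair for 5 of the 12 and the highest pair for 3. Microglial markers (13 of 13 genes) summed to 254 and 276 CPM, inside the control range of 248 to 319 CPM, and tanycyte markers (12 of 12 genes) to 178 and 148 CPM, inside 146 to 232 CPM. Endothelial markers (11 of 11 genes) summed to 210 and 197 CPM, below the control range of 241 to 268 CPM, but the other 4 MMS libraries ran from 180 to 277 CPM. Meningeal and fibroblast markers (9 of 9 genes) summed to 311 and 192 CPM, below the control range of 326 to 1387 CPM, and the other 4 ran from 130 to 2371 CPM. The lipoprotein genes described below (13 of 13 in the table) summed to 917 and 927 CPM, above all other libraries, which ran up to 896 CPM. The part of other cell types' RNA in the values of Gfap, S100b, Apoe and Slc1a3 was not tested. With the ependymal score as a covariate the log2 fold changes were 0.064 for Gfap, 0.032 for S100b, 0.16 for Apoe and -0.040 for Slc1a3, and those of Aldoc and Glul were 0.29 and 0.40.

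**Figure D3:**
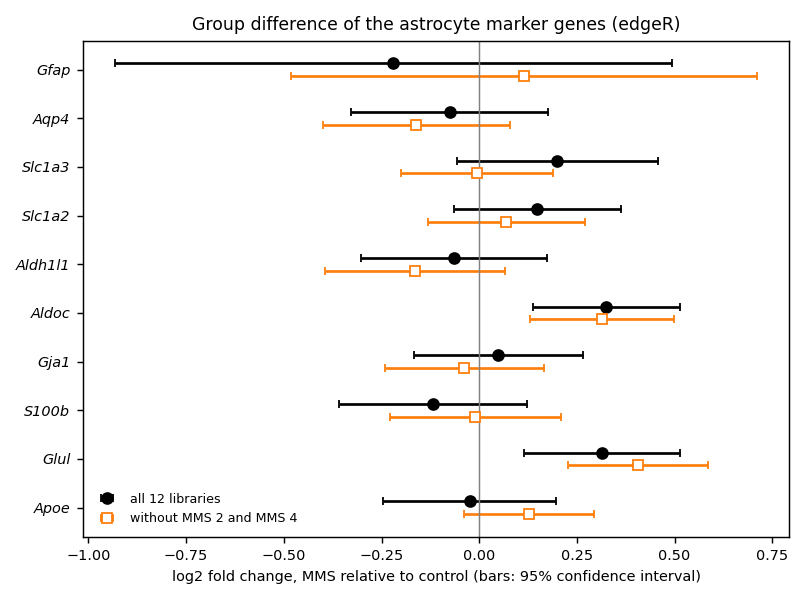
Points are edgeR log2 fold changes of MMS relative to control on the horizontal axis, with 95% confidence intervals, for all 12 libraries (filled circles) and without MMS 2 and MMS 4 (open squares). The intervals of Aldoc (0.14 to 0.51) and Glul (0.11 to 0.51) lie above 0 in both fits, and those of the other 8 genes span 0.

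The remaining 3 genes belong to the endfoot, the gap junction and folate metabolism, and their groups overlapped. Aqp4 encodes the water channel of perivascular endfeet (18:15389496-15410982, minus strand). It measured 116, 137 and 166 CPM in the control group and 102, 137 and 157 CPM in the MMS group, with a log2 fold change of -0.08 (SE 0.12, 95% confidence interval -0.33 to 0.18, edgeR adjusted p = 0.849). It was -0.16 without MMS 2 and MMS 4, -0.24 with the ependymal score as a covariate and -0.0011 without MMS 5. MMS 3 and MMS 5 lay below all controls, and MMS 2 and MMS 4 did not. Gja1 encodes connexin 43, the main gap junction protein of astrocytes (10:56377330-56402513, plus strand). Its values were 192, 215 and 263 CPM in the control group and 195, 234 and 258 CPM in the MMS group, so that every MMS library lay within the controls, and the log2 fold change was 0.05 (SE 0.10, 95% confidence interval -0.17 to 0.26, edgeR adjusted p = 0.890). It was -0.038 without MMS 2 and MMS 4, which were the highest MMS libraries.

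Aldh1l1 encodes a folate enzyme and is the marker most often used to label astrocytes as a population (6:90486427-90600203, plus strand, with 3 other gene models overlapping). It measured 50.4, 58.0 and 65.0 CPM in the control group and 49.0, 52.3 and 70.4 CPM in the MMS group. MMS 4 was the highest of all libraries, and MMS 1 and MMS 6 lay below all controls. The log2 fold change was -0.06 (SE 0.11, 95% confidence interval -0.30 to 0.17, edgeR adjusted p = 0.869) and was -0.16 without MMS 2 and MMS 4. Antisense gene models overlap Aldh1l1, Aqp4 and Slc1a2, and their reads cannot be told apart from these genes where counting did not use strand. Models on the same strand overlap Aldh1l1 (Gm45901 and Gm44236), Slc1a3 (Gm37310) and Glul (Mir8114). For these the use of strand would not separate the reads.

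A second list held 30 other astrocyte markers, all of which were tested. Of these 22 had positive log2 fold changes, with a median of 0.09, and 20 did so without MMS 2 and MMS 4, with a median of 0.06. None had an adjusted p under 0.05 in edgeR, and 3 were higher and 1 lower at an unadjusted p under 0.05, against 4.68% and 4.4% of all genes. Positive values were found for 6568 of all 13104 genes. Agt, angiotensinogen, which is made by hypothalamic astrocytes, came to 0.39 on the log2 scale (SE 0.12, edgeR adjusted p = 0.518), with 4 of 6 MMS libraries above the control range. Hepacam, an adhesion protein of endfeet, had 0.33 (SE 0.13) and Gjb6, connexin 30, 0.66 (SE 0.26), again with 4 of 6 libraries above all controls. Gjb6 was uneven in the MMS group, with a median of 29.0 and a highest value of 71.4 CPM. The highest control was at 27.6 CPM. Sox9, a transcription factor of glial progenitors and astrocytes, had -0.54 (SE 0.24). It was -0.21 without MMS 2 and MMS 4 and still met the unadjusted limit. In that fit 3 genes of the list were higher and 2 lower at this limit, against 2.41% and 2.62% of all genes.

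The genes that act with the 10 markers were described by function. Of 15 genes of glutamate and glutamine handling, 8 had positive values and the median was 0.04. In either direction 9.08% of all genes met the unadjusted limit, and 1 of the 15 did. This was Slc7a11, the cystine-glutamate exchanger (log2 fold change -0.41, SE 0.17, and -0.21 without MMS 2 and MMS 4). Of 10 tested endfoot genes, 1 met the limit, against 9.08% of all genes, and the median was 0.05. The gene that met it was Hepacam, which is also in the list above.

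Of 12 tested genes that handle lipoproteins with Apoe, 3 were higher and 1 lower at the unadjusted limit, against 4.68% and 4.4% of all genes, with a median of 0.05. The receptors Vldlr (log2 fold change 0.34, SE 0.14) and Lrp8 (0.25, SE 0.11) and the exporter Abcg1 (0.31, SE 0.15) had positive values, and the liver X receptor Nr1h2 had -0.40 (SE 0.17). None of the 4 met the limit without MMS 2 and MMS 4, where Vldlr was 0.19 and Lrp8 0.16. Of 12 intermediate filament and radial glia genes, Hes5, a Notch target of progenitors, had -0.45 (SE 0.15, 5 of 6 MMS libraries below all controls), and Pax6 had 1.13 (SE 0.40). The latter measured 7.26 ± 3.40 CPM in the control group and 15.6 ± 7.33 CPM in the MMS group (SD over 6 libraries each). Without MMS 2 and MMS 4, Pax6 was 0.69 and no longer met the limit, and Hes5 was -0.23 and still met it. The list had a median of -0.02.

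Genes induced in reactive astrocytes were in part below the count filter. Of 18 listed, 7 passed it, 1 had 0 counts in all libraries, and 8 had counts in every library. Of all 43280 gene rows 13104 passed the filter and 23550 had a count. S1pr3, a sphingosine phosphate receptor, was the gene with the smallest p (log2 fold change -0.49, SE 0.22, adjusted p = 0.543 in edgeR), and 5 of 6 MMS libraries lay below all controls. The summed level of the list was 74.9 to 88.9 CPM in the control group and 68.9 to 110 CPM in the MMS group, and the median log2 fold change of the tested genes was -0.08. Without MMS 2 and MMS 4 the median was 0.02, and S1pr3, at -0.48, no longer met the unadjusted limit.

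**Figure D4:**
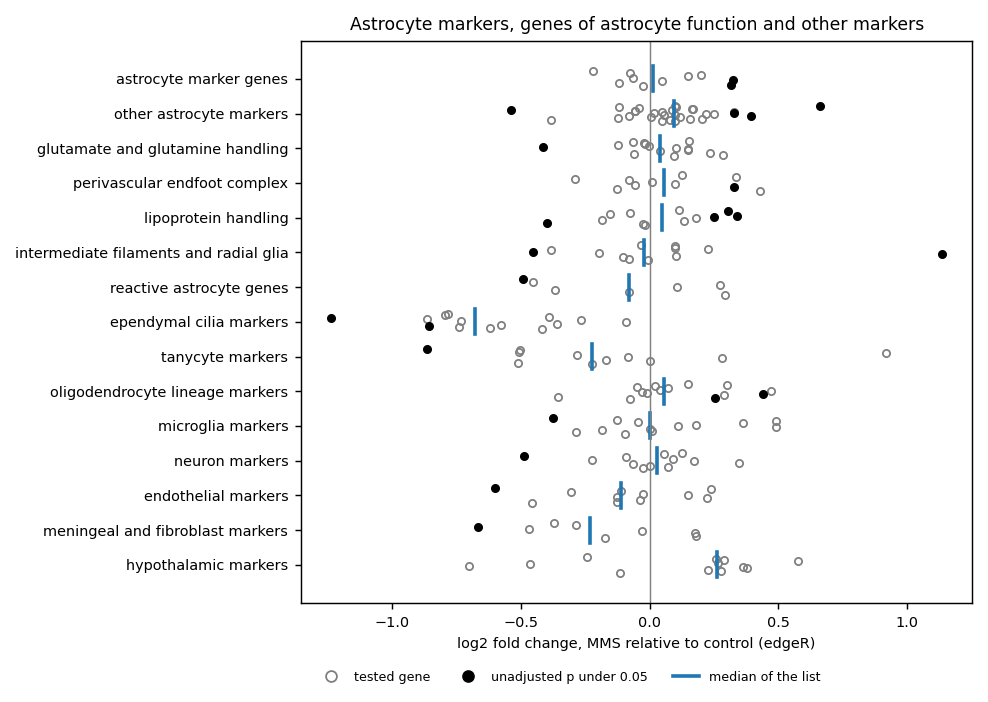
Each point is the edgeR log2 fold change (MMS relative to control) of 1 tested gene, grouped by list, filled where the unadjusted p is under 0.05, with a bar at the median of the list. The astrocyte marker genes centre on 0.01 with Aldoc (0.33) and Glul (0.31) filled, and the ependymal cilia markers lie lowest, with a median of -0.68.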

How the data were processed

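Transcript ends of hypothalamic RNA from 6 controls and 6 MMS pups were read with a QuantSeq 3′ kit on an Ion Proton, and the authors aligned reads to mm10 in Torrent Suite. The authors deposited raw counts per gene, 1 column per library, without normalization. Which tool counted the reads, with which strand setting and annotation, is not given in the sources used here. Dates had replaced the symbol in 27 rows, which stayed in the fit and held 0.175% of counts.

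Groups came from the sample titles. Over 30 within-group pairs of libraries, chi-square per degree of freedom was 4.04 to 31.5, so all libraries were kept as separate samples. Group differences in counts came from edgeR 4.0.16 (R 4.3.3) by quasi-likelihood, with robust dispersions, TMM scaling, filterByExpr at 10 counts and a total of 15, two-sided, with Benjamini-Hochberg adjustment over 13104 genes. The script was tested on simulated data. Alternatives used DESeq2 1.42.0, limma 3.58.1 and other filters, scalings and library sets. The members, lists and settings were chosen with earlier results of these data known. All 10 members were named, and from each list up to 4 genes with the smallest unadjusted p under 0.05; Agrp, Aldoa and example markers were added after, and some list genes are not reported here. Coordinates are 1-based, from GENCODE M21 (91.1% of symbols matched). No protein sequences were used here.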

Additional observations from a re-analysis of the deposited data

Results flagged for a closer look

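In the MMS group the Aldh1l1 value of MMS 4, 70.4 CPM, lay far above the other 5, the next of which was 56.0 CPM, by the 95% limit of Dixon's criterion. Of 22 sets of 6 values examined (the 10 genes and the library total in each group) this was the only 1 past the limit, where chance gives about 1.1.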

How the results depend on the processing

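Of the 10 genes, 0 passed an adjusted p of 0.05 and the same 2 were higher at an unadjusted p under 0.05 in all 21 alternative settings, 12 of which left out 1 library. Across them the log2 fold change of Aldoc ran from 0.28 to 0.38 and that of Glul from 0.27 to 0.41, with adjusted p-values of 0.119 to 0.998 and 0.129 to 0.837. Signs turned for 5 genes that were not called. With the ependymal score as a covariate they were 0.16 for Apoe, 0.064 for Gfap, -0.065 for Gja1, 0.032 for S100b and -0.040 for Slc1a3. Without MMS 2 and MMS 4 they were 0.13 for Apoe, 0.11 for Gfap, -0.038 for Gja1 and -0.0047 for Slc1a3. Apoe was 0.040 in limma-voom with quality weights and ran from -0.060 to 0.043 on leaving out 1 library. The median of the 10 genes stayed between -0.0061 and 0.064. Causes were not tested.

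With the replicate block, Aldoc was 0.33 and Glul 0.31, with adjusted p-values of 0.433 and 0.442 in edgeR. Same-numbered libraries correlated at -0.048 to 0.12, and 2 of 6 controls were nearest their own number, so the numbers were not taken as pairs. With 152 to 397 counts per library, Aldh1l1 was the gene measured from the fewest reads.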

Other observations

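Other cells of the tissue gave a mixed picture. Among 11 endothelial genes Cldn5, the tight junction claudin of brain vessels, had the smallest p, with 44.0 ± 4.61 CPM in the control group and 29.1 ± 6.66 CPM in the MMS group (SD over 6 libraries each, log2 fold change -0.60, SE 0.15, adjusted p = 0.385 in edgeR), and 5 of 6 MMS libraries lay below all controls. It was -0.51 without MMS 2 and MMS 4. Of 13 microglial genes 0 were higher and 1 lower at the unadjusted limit, against 4.68% and 4.4% of all genes. The median of the list was 0.0003. The lower gene was the chemokine receptor Cx3cr1, at -0.37 (SE 0.14). It was -0.25 without MMS 2 and MMS 4 and did not meet the limit there. Among 14 tested oligodendrocyte genes 2 were higher and 0 lower at the unadjusted limit, against 4.68% and 4.4% of all genes. The myelin enzyme gene Cnp had 0.26 (SE 0.12), and 0 genes of the list met the limit without MMS 2 and MMS 4.

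All 14 tested ependymal cilia genes had negative values, with 11 of 15 so without MMS 2 and MMS 4 (median -0.26). At the unadjusted limit 2 were lower with all libraries and 3 without these, against 4.4% and 2.62% of all genes. Rsph4a, a radial spoke protein, was lower in all 6 MMS libraries than in any control (-0.86, SE 0.22). The tanycyte, neuron and meningeal lists each had 0 genes higher and 1 lower at the unadjusted limit, against 4.68% and 4.4% of all genes. Of 11 tanycyte genes it was Crym (-0.86, SE 0.38), of 12 neuron genes Tubb3 (-0.49, SE 0.21), and of 8 meningeal genes Col3a1 (-0.66, SE 0.31). Without MMS 2 and MMS 4 these were -0.58, -0.20 and -0.42, and none of the 3 met the unadjusted limit. The lists had medians of -0.22, 0.03 and -0.23 with all libraries. Positive values were found for 3 tanycyte, 7 neuron and 2 meningeal genes. The hypothalamic markers had a median of 0.26 with 0 of 12 genes at that limit. None of these genes had an adjusted p under 0.05 in edgeR.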
